A study of Rattus norvegicus with 6 samples.

Results

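Expression of 10 genes of the RGS family (regulators of G protein signalling) was followed in rat cerebral arteries 6 hours after bleeding around the brain. They were chosen by name: 4 members associated with vessel wall cells (Rgs2, Rgs3, Rgs4 and Rgs5) and 6 associated with leukocytes (Rgs1, Rgs10, Rgs14, Rgs16, Rgs18 and Rgs19). All 10 were found among the 18166 genes that had a probe set (a group of array probes for a transcript) naming that gene alone, and each had exactly 1 such probe set. Male rats with subarachnoid haemorrhage (SAH), whose arteries were taken 6 hours later (arrays 1, 4 and 5), were compared with male sham-operated rats, for which the labels give no time (arrays 6, 7 and 8). Each group had 3 arrays. The labels name no strain or age and do not say whether arteries of several rats were pooled or whether each array came from another rat, so a p-value here reflects only how much these samples vary, part of which may be technical.

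RGS proteins end signals of G protein-coupled receptors. A receptor that binds its ligand loads the alpha subunit of a G protein with GTP, and RGS proteins speed the hydrolysis of that GTP, which shortens the signal. In arteries this bears on receptors for vasoconstrictors, many of which act through Gq and G12/13 proteins, and in leukocytes it bears on chemokine receptors, which act mainly through Gi proteins.

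In these arteries no RGS member passed the test across all genes. Of the 10 members 0 had an adjusted p under 0.05 (limma, a linear model with spreads moderated across probe sets, adjusted by Benjamini-Hochberg across the 36495 probe sets), where 1.29% of all genes passed. At an unadjusted p under 0.05 there were 2 members, Rgs16 and Rgs3, against a background of 18.6% of all genes, and both were lower in SAH arteries, as were 10.5% of all genes. These were also the 2 members whose SAH and sham values did not overlap, while 26.8% of all genes did not overlap, 15.4% with SAH below sham. A count of 2 in 10 is near both background shares.

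The sequences just before the start of 4 members are shown, because Rgs16 and Rgs3 were the members without overlap, Rgs2 followed Rgs16 on sham array 8, and Rgs5 gave nearly level values. Each run holds the 250 bases before the gene start in the RefSeq promoter table (GRCr8 build), written 5′ to 3′ on the strand of the gene. For Rgs16, Rgs3, Rgs10 and Rgs19 the start in that table lies 16640, 56463, 4563 and 3207 bases inside the outer 5′ bound of the gene in the RefSeq gene list, so these windows and their motif matches belong to 1 of the possible starts. Capitals mark matches on either strand to the motifs searched. The windows lie at chr13:68437870-68438119 (plus strand) for Rgs16, chr5:81093801-81094050 (plus strand) for Rgs3, chr13:58352667-58352916 (minus strand) for Rgs2 and chr13:84380827-84381076 (plus strand) for Rgs5.
Rgs16: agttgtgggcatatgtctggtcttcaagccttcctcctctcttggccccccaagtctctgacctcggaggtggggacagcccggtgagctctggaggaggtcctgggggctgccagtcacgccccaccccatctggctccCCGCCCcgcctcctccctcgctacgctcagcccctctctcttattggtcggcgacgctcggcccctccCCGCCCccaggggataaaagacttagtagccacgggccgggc
Rgs3: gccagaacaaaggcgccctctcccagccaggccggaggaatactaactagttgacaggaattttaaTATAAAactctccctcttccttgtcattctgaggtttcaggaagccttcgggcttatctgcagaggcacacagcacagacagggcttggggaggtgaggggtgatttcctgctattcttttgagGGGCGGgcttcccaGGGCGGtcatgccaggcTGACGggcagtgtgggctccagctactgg
Rgs2: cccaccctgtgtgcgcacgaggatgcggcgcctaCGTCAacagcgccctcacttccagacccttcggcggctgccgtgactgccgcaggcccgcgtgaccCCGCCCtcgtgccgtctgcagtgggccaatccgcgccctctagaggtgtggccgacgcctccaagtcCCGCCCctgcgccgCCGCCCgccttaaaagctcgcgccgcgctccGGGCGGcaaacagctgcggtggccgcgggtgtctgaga
Rgs5: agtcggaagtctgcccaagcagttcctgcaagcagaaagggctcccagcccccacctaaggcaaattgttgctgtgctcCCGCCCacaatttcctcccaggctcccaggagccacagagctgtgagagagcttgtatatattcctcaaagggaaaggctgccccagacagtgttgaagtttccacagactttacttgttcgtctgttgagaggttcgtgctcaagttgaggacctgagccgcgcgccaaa

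The motifs searched on both strands were the cyclic AMP response element TGACGTCA, its core TGACG, the AP-1 site TGANTCA, the NF-kappaB site GGGNNTTTC, the interferon-stimulated response element GAAANNGAA, the gamma-activated sequence TTCNNNGAA, the GC box GGGCGG, the TATA box TATAAA, the E-box CACGTG and the CArG box of smooth muscle genes. The core TGACG is part of the full cyclic AMP response element, so a full match would hold the core too. All 10 members had a window in the table. The GC box was found before 5 of the 10 members, against 30.5% of the 33469 promoters of the same length. The Rgs2 window held 4 copies of it, beginning 150, 83, 69 and 38 bases before the start. The core TGACG was found before 4 members (Rgs2, Rgs3, Rgs4 and Rgs1), against 18.2% of promoters, and TATAAA before 3 (Rgs3, Rgs4 and Rgs1), against 12.9%. The TATAAA matches began 184 (Rgs3), 42 (Rgs4) and 25 (Rgs1) bases before the start. Of the others, GGGNNTTTC was found before Rgs14 (3.7% of promoters), GAAANNGAA before Rgs18 (8.12%) and CACGTG before Rgs19 (5.59%). No member's window held TGACGTCA, TGANTCA, TTCNNNGAA or a CArG box, which says only that these letters were not in these windows. The share of bases that were G or C ran from 38.4% (Rgs18) to 77.6% (Rgs10) over the 10 windows, against a median of 51.2% over all promoters.

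Several members are neighbours in the genome. In the RefSeq gene list, 6 of the 10 lie on chromosome 13. Rgs5 and Rgs4 are next to each other there, with no protein-coding gene between them. Rgs2 has Rgs13 as a direct neighbour, Rgs1 lies between Rgs13 and Rgs21, and Rgs18 follows Rgs21. Rgs16 lies beside Rgs8. The adjacent genes Rgs4 and Rgs5 did not follow each other on all arrays. The sham array with the highest Rgs4 value (array 7, 10.48) was also the highest sham array for Rgs5 (11.49), but the lowest SAH array for Rgs4 (array 4, 9.67) was the highest SAH array for Rgs5 (11.49).

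The deposited values are on a log2 scale, so a difference of 1 is a doubling of signal, and levels of different probe sets are not set against each other. The median of all probe sets lay between 7.31 and 7.37 on the 6 arrays. Of the members, 8 lay above the median of every array, as did 10327 of the 18166 genes. Rgs14 lay above it on 2 arrays, and Rgs1 lay below the lower quartile of every array. Of 12 measured markers of mural cells (smooth muscle cells and pericytes) 11 lay above the array median on at least 1 array. Over all 18166 genes, 6146 did so on no array. Among 6 glial markers and 11 monocyte and macrophage markers 0 failed to do so, so this count does not single out the vessel wall. Sham array 8 stood apart from the other sham arrays in its neutrophil markers, as described beside the leukocyte members. The differences of the members are therefore also given without it. For the 5 members that read highest on it, leaving it out can only raise the difference, so the direction of that shift carries no information.

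**Figure D1:**
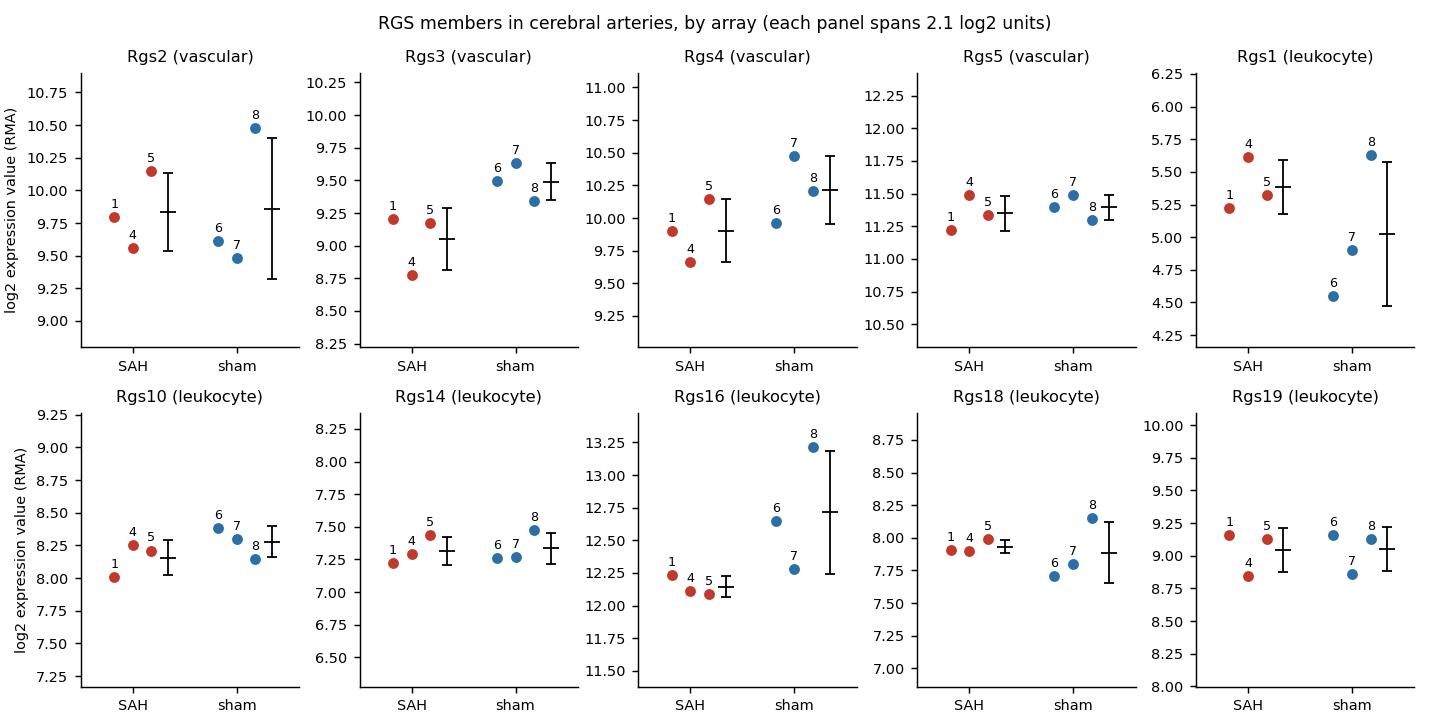
Log2 expression values (vertical axes, each spanning the same number of log2 units) of the 10 RGS members on the 3 SAH arrays (left, red) and the 3 sham arrays (right, blue), with array numbers beside the points and black bars for mean and SD. The SAH points of Rgs3 and Rgs16 lie below all their sham points, and sham array 8 is the highest of 6 for Rgs1, Rgs2, Rgs14, Rgs16 and Rgs18.

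Among the vascular members, Rgs2 limits signals of Gq-coupled vasoconstrictor receptors and is itself activated by the cyclic GMP-dependent kinase of the nitric oxide pathway. Rgs2 (probe set 17684906) read 9.80, 9.56 and 10.15 in SAH arrays 1, 4 and 5, against 9.61, 9.49 and 10.48 in sham arrays 6, 7 and 8. The groups overlapped widely, with the highest and the lowest of the 6 values both in the sham group. Its log2 difference, SAH minus sham, was -0.02 ± 0.28 (limma SE, n = 3 each), with a 95% interval from -0.70 to 0.65 and an adjusted p of 0.983. This difference depended on the array left out: Rgs2 differed by 0.29 without sham array 8 (adjusted p = 0.596) and by -0.21 without sham array 7 (0.867). Prkg1, which encodes the cyclic GMP-dependent kinase, differed by -0.02 ± 0.12 (adjusted p = 0.966).

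Rgs3, which acts on both Gi and Gq alpha subunits, was the vascular member with the smallest p. Rgs3 (probe set 17799228) read 9.21, 8.77 and 9.17 in SAH arrays, against 9.49, 9.63 and 9.34 in sham arrays. Every SAH value lay below every sham value, by a margin of less than the range within either group. The difference was -0.44 ± 0.15 (SE, n = 3 each), or 1.36-fold lower signal in SAH, with a 95% interval from -0.79 to -0.09 and a limma adjusted p of 0.250. It ranged from -0.52 to -0.30 when an array was left out, and its adjusted p lay between 0.128 and 0.535 over all alternatives tried.

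Rgs4, which acts on Gi and Gq alpha subunits and is abundant in brain, and Rgs5, a known marker of pericytes and arterial smooth muscle, did not separate the groups. Rgs4 (probe set 17686406) read 9.90, 9.67 and 10.15 in SAH arrays, against 9.96, 10.48 and 10.20 in sham arrays. Only sham arrays 7 and 8 lay above all SAH values, and the difference was -0.31 ± 0.18 (95% interval -0.73 to 0.11, adjusted p = 0.491). Rgs5 (probe set 17681763) read 11.22, 11.49 and 11.33 in SAH arrays, against 11.40, 11.49 and 11.30 in sham arrays. Here the SAH and sham values spanned nearly the same range, and the difference was -0.05 ± 0.11, with an adjusted p of 0.903 (n = 3 each). Its 95% interval of the fold, from 0.807 to 1.16, was among the narrowest of the members.

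The mural cell markers give the setting for Rgs5. Of 12 measured markers of smooth muscle cells and pericytes, 1 fell, where 0.33% of all genes did, and 11 did not pass. At an unadjusted limma p under 0.05 there were 5, all lower in SAH, as were 10.5% of all genes. The median difference of the list was -0.33. For 8 of the 12 all SAH values lay below all sham values, as they did for 15.4% of all genes. Smtn, which encodes the contractile protein smoothelin, was the marker that fell, to 10.20 ± 0.17 in SAH arteries, against 11.38 ± 0.17 in sham arteries (SD, n = 3 each, limma adjusted p = 0.0197). Smtn no longer passed when SAH array 4 (adjusted p = 0.0988), SAH array 5 (0.0701), sham array 6 (0.125) or sham array 7 (0.108) was left out. By array, the mean log2 value over these markers was 10.80, 10.84 and 10.78 in SAH arrays, against 11.27, 11.36 and 11.14 in sham arrays. In such bulk samples fewer cells of a type and less RNA per cell cannot be told apart.

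Set against that mean on the same array, a comparison chosen after the values were seen, Rgs5 stood at 0.43, 0.66 and 0.55 in SAH arrays and at 0.13, 0.13 and 0.16 in sham arrays. All SAH ratios lay above all sham ratios, with a difference of 0.40 (exact two-sided permutation p = 0.1, the smallest that 3 against 3 arrays allow). However, 70.4% of all genes also lay higher in all SAH arrays by this ratio, so the direction is shared with most genes. For Rgs3 the ratio differed by 0.01 (exact permutation p = 1.0), for Rgs4 by 0.14 (0.5) and for Rgs2 by 0.42 (0.3), each with overlapping groups.

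Of the leukocyte members, Rgs16 had the largest difference. It encodes a regulator of Gi and Gq signalling that is known to be induced in activated lymphocytes. Its place among the leukocyte members rests on such knowledge, and which cells gave its signal in these arteries was not tested. Rgs16 (probe set 17681025) read 12.24, 12.11 and 12.09 in SAH arrays, against 12.65, 12.28 and 13.21 in sham arrays. The SAH values lay close together and below all sham values, while the sham values spanned 0.935 log2 units with array 8 at the top. The difference was -0.57 ± 0.23 (SE, n = 3 each), or 1.49-fold lower in SAH, with a 95% interval from -1.11 to -0.04 and a limma adjusted p of 0.315. When an array was left out, it ranged from -0.79 (without sham array 7, adjusted p = 0.272) to -0.32 (without sham array 8, adjusted p = 0.439). The lymphocyte markers had a median difference of 0.11, and its relation to Rgs16 was not tested.

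Rgs1, which dampens chemokine receptor signals in B and T lymphocytes, was the dimmest relative to the arrays' own quartiles and had the largest positive difference. Rgs1 (probe set 17684919) read 5.22, 5.61 and 5.32 in SAH arrays, against 4.55, 4.90 and 5.63 in sham arrays. Sham arrays 6 and 7 lay below all SAH arrays, and sham array 8 lay above them. The difference was 0.36 ± 0.27 (95% interval -0.28 to 1.00, adjusted p = 0.615, n = 3 each), and it was 0.66 without sham array 8 (adjusted p = 0.230) and 0.12 without sham array 6 (adjusted p = 0.917). RMA, the method that summarised the probes, understates differences of dim probe sets.

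Rgs18, which is known from platelets and their precursor cells, read 7.90, 7.90 and 7.99 in SAH arrays, against 7.71, 7.80 and 8.15 in sham arrays (probe set 17684931). Sham arrays 6 and 7 lay below all SAH arrays, and sham array 8 lay above them. The difference was 0.05 ± 0.14 (adjusted p = 0.920), and without sham array 8 it was 0.18 (adjusted p = 0.564). Of 6 measured platelet markers 0 passed limma's adjusted threshold and 1 had an unadjusted p under 0.05, against 18.6% of all genes. It was Itga2b (platelet integrin alpha IIb), with a difference of 0.82 ± 0.24 and an adjusted p of 0.200.

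The other 3 leukocyte members were nearly level. Rgs10, known from microglia and macrophages, read 8.01, 8.25 and 8.21 in SAH arrays, against 8.39, 8.30 and 8.15 in sham arrays (probe set 17637588, difference -0.12 ± 0.12). Rgs14, which carries a further motif that holds Gi alpha subunits in their GDP-bound state, read 7.22, 7.29 and 7.43 in SAH arrays, against 7.26, 7.27 and 7.47 in sham arrays (probe set 17718150, difference -0.02 ± 0.11, and 0.05 without sham array 8). Rgs19, also known as GAIP and named for its binding to a Gi alpha subunit, read 9.16, 8.85 and 9.13 in SAH arrays, against 9.16, 8.86 and 9.13 in sham arrays (probe set 17780246, difference -0.01 ± 0.14). The adjusted p values of these 3 were 0.702, 0.964 and 0.990, and the groups overlapped for each.

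**Figure D2:**
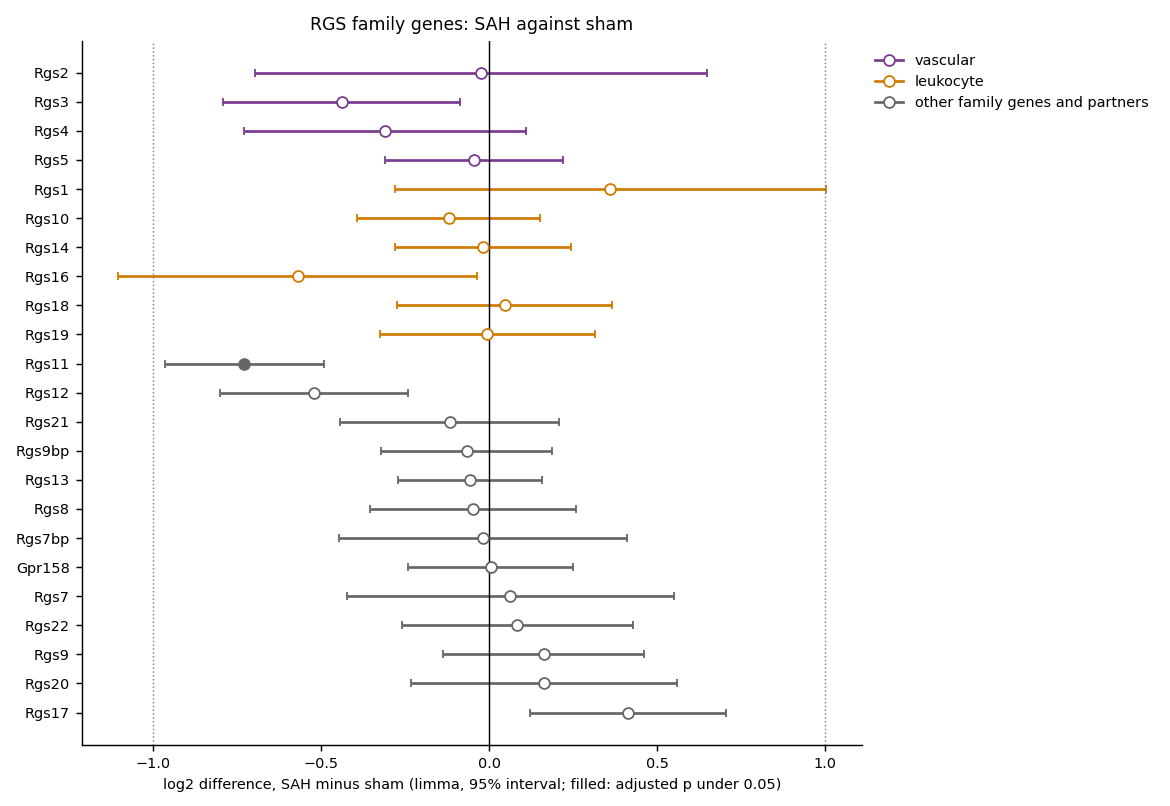
Log2 differences, SAH minus sham, with 95% intervals from limma for the 4 vascular members, the 6 leukocyte members and 13 other RGS family genes and partners. Filled points passed an adjusted p under 0.05, which only Rgs11 did, at -0.73, and dotted lines mark 2-fold either way.

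The intervals bound what these arrays leave possible for each member. For 8 of the 10 members the 95% interval lay within 2-fold either way, and it reached further for Rgs16 and Rgs1. These intervals are not adjusted for the number of genes tested. A p that misses the threshold does not show that a gene had the same level in both groups.

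Taken as groups, the vascular members had a median difference of -0.18, with 0 above and 4 below 0, and the leukocyte members a median of -0.01, with 2 above and 4 below 0, beside a median of -0.01 over all genes. The median of the vascular members relative to their sham means was -0.23, -0.43 and -0.06 in SAH arrays 1, 4 and 5, against -0.12, 0.12 and -0.05 in sham arrays 6, 7 and 8. For the leukocyte members it was -0.05, -0.03 and 0.09 in SAH arrays, against -0.07, -0.10 and 0.20 in sham arrays. In both cases the SAH and sham arrays overlapped, and the gap between the 2 medians was about the size of the spread of the vascular median among arrays (SD 0.155). No test was made of this gap, since the members were not chosen blind to the data.

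Sham array 8 gave the highest of all 6 values for 5 of the 10 members, namely Rgs1, Rgs2, Rgs14, Rgs16 and Rgs18, where 12.8% of all genes were highest on that array. The other 5 members had at least 1 higher value among sham arrays 6 and 7. Without sham array 8 the differences of Rgs3, Rgs4, Rgs5, Rgs10 and Rgs19 were -0.51, -0.31, -0.09, -0.19 and 0.03. This array also read high for neutrophil markers, although 0 of the 13 measured had their highest of 6 values on it. The highest value did fall on it for 4 of 8 measured neuron markers and 3 of 11 monocyte and macrophage markers. Over 13 measured neutrophil markers the mean log2 value was 8.64, 8.79 and 9.68 in SAH arrays 1, 4 and 5, against 7.31, 7.44 and 9.20 in sham arrays 6, 7 and 8. Of these 13 markers 0 passed limma's adjusted threshold and 3 had an unadjusted p under 0.05, against 18.6% of all genes. Their median difference was 1.27, or 2.15 without sham array 8. The part of these cells in the values of the 5 members highest on sham array 8 was not tested.

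The other leukocyte markers were counted in the same way. Over 11 measured monocyte and macrophage markers the mean log2 value was 9.67, 9.79 and 9.71 in SAH arrays, against 9.58, 9.37 and 10.06 in sham arrays, and over 11 lymphocyte markers 7.38, 7.29 and 7.31, against 7.24, 6.94 and 7.14. Of the monocyte and macrophage markers 0 passed limma's adjusted threshold and 4 had an unadjusted p under 0.05, where 18.6% of all genes did. Of these 4, the differences of Csf1r (-0.50), Mrc1 (-1.24) and Cd163 (-1.29) were negative and that of Ccr2 (1.86) was positive, so the list means average over opposite signs. In the lymphocyte list all SAH means lay above all sham means, with 0 of 11 genes past limma's adjusted threshold. At an unadjusted p under 0.05 there were 4, all higher in SAH, as were 1482 of all 18166 genes. The differences in this list ran from -0.29 to 1.02, and 5 of its 11 markers did not exceed the array median on any array. Neuron markers, relevant to Rgs4 and Rgs14, which are known from neurons, had means of 7.09, 7.18 and 7.53 in SAH arrays, against 7.21, 7.12 and 7.51 in sham arrays, with 0 of 8 past limma's adjusted threshold and 1 at an unadjusted p under 0.05. The part of these cells in the values of the members was not tested.

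**Figure D3:**
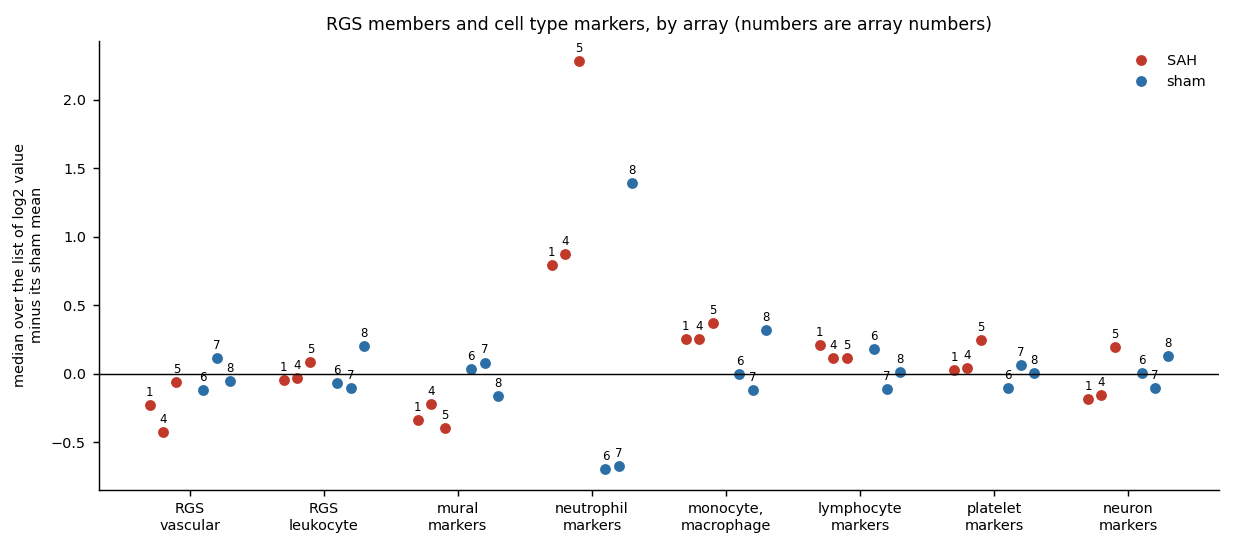
For each array, the median over a list of the log2 value minus the gene's sham mean (vertical axis), for both groups of RGS members and 6 lists of cell type markers, with SAH arrays in red on the left and sham arrays in blue on the right. The RGS medians lie between -0.43 and 0.20, whereas the neutrophil markers reach 2.28 on SAH array 5 and 1.40 on sham array 8.

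The wider RGS family held the 1 RGS gene that passed. Of 13 measured genes in the list of other family members and their partners, 1 fell, 0 rose and 12 did not pass, where 0.33% of all genes fell and 0.963% rose. Rgs11 encodes a member of the R7 subfamily, whose proteins pair with the G protein beta 5 subunit, and is known from retina and nervous tissue. Rgs11 read 7.83, 7.85 and 7.95 in SAH arrays, against 8.69, 8.64 and 8.50 in sham arrays. All SAH values lay below all sham values, 1.66-fold lower on the group means, which were 7.88 ± 0.06 and 8.61 ± 0.10 (SD, n = 3 each, difference -0.73 ± 0.10 SE, limma adjusted p = 0.0347). The call ended without SAH array 4 (adjusted p = 0.133), SAH array 5 (0.101), sham array 6 (0.197), sham array 7 (0.171) or sham array 8 (0.0761), with differences between -0.78 and -0.69.

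Other family genes gave differences without passing. Rgs12, a large regulator with several further domains, read 7.58, 7.57 and 7.51 in SAH arrays, against 8.14, 8.22 and 7.87 in sham arrays (difference -0.52 ± 0.12, adjusted p = 0.121). Rgs17, of the subfamily that acts on Gz and Gi, was the only gene of this list whose SAH values all lay above the sham values, at 7.23, 6.90 and 7.24, against 6.73, 6.76 and 6.65 (difference 0.41 ± 0.12, adjusted p = 0.201). Gnb5, the gene for the beta 5 partner of Rgs11, differed by -0.41 ± 0.20 (adjusted p = 0.423), and Rgs7bp, which anchors R7 proteins at the membrane, by -0.02 ± 0.18 (adjusted p = 0.978). The chromosome 13 neighbours of the members, Rgs13, Rgs21 and Rgs8, differed by -0.06 ± 0.09, -0.12 ± 0.14 and -0.05 ± 0.13. Of the 13 genes in this list 9 did not exceed the array median on any array, against 6146 of all 18166 genes.

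The G proteins on which RGS proteins act showed no passing gene. Of 11 measured alpha subunits 0 passed limma's adjusted threshold and 5 had an unadjusted p under 0.05, 4 of them lower and 1 higher in SAH. At that cut stood 18.6% of all genes, with 10.5% lower in SAH. The largest difference was that of Gna13, whose product couples receptors to RhoA, which read 11.15, 11.69 and 11.81 in SAH arrays, against 10.41, 10.54 and 10.71 in sham arrays. All SAH values lay above all sham values (difference 1.00 ± 0.19, adjusted p = 0.0799). Gnao1, for the Go alpha subunit, differed by -0.67 ± 0.12 (adjusted p = 0.0768) and Gna12, the close relative of Gna13, by -0.44 ± 0.09 (adjusted p = 0.104). Among the targets of Rgs2, Gnaq differed by -0.44 ± 0.13 and Gna11 by -0.39 ± 0.12, with adjusted p of 0.205 and 0.199. Of 12 measured beta and gamma subunits 0 passed limma's adjusted threshold and 2 had an unadjusted p under 0.05, with Gng8 at -0.55 ± 0.10 (adjusted p = 0.0771), Gng5 at 0.49 ± 0.18 (0.279) and Gnb2 at -0.21 ± 0.10 (0.395).

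The receptors upstream were counted in an arterial list and a leukocyte list. Of 21 measured arterial receptors 0 passed limma's adjusted threshold and 6 had an unadjusted p under 0.05, against 18.6% of all genes. The list had a median difference of -0.02. Adra1b, an alpha1 adrenergic receptor, differed by -0.61 ± 0.18, the serotonin receptor gene Htr2a by -0.42 ± 0.13 and the sphingosine 1-phosphate receptor gene S1pr2 by -0.33 ± 0.10. Of 17 leukocyte chemoattractant receptors 0 passed and 6 had an unadjusted p under 0.05 (limma), all 6 higher in SAH, with a median difference of 0.29. Ccr2, the receptor for monocyte-attracting chemokines, read 9.94, 10.17 and 10.33 in SAH arrays, against 7.41, 7.65 and 9.82 in sham arrays, so sham array 8 lay nearer to the SAH arrays than to the other sham arrays (difference 1.86 ± 0.59, adjusted p = 0.228, and 2.62 without sham array 8). Ccr7 differed by 0.44 ± 0.11 and Ltb4r, a leukotriene B4 receptor, by 0.82 ± 0.25. The leukocyte RGS members, at a median of -0.01, did not share this positive median, and the difference between the lists was not tested.

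Receptor kinases and arrestins also end receptor signals. Of 7 measured genes 0 passed limma's adjusted threshold and 3 had an unadjusted p under 0.05, against 18.6% of all genes. Grk5, a kinase of arterial and cardiac receptors, differed by 0.71 ± 0.20, Grk4 by 0.73 ± 0.25 and Arrb1, beta-arrestin 1, by -0.45 ± 0.14 (adjusted p = 0.188, 0.254 and 0.221). Of 8 other regulators of G protein cycling 0 passed limma's adjusted threshold and 2 had an unadjusted p under 0.05. Gpsm2, which binds GDP-bound Gi alpha subunits, differed by 0.69 ± 0.16, Gpsm1 by -0.43 ± 0.18 and Ric8a, a chaperone of alpha subunits, by -0.11 ± 0.11 (adjusted p = 0.121, 0.337 and 0.710).

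Among the effectors, 1 of 15 measured phospholipase C and adenylyl cyclase genes fell, 0 rose and 14 did not pass. Over all genes 0.33% fell and 0.963% rose. The median difference of the list was -0.19. Adcy5, an adenylyl cyclase inhibited by Gi, read 9.62, 9.90 and 9.57 in SAH arrays, against 10.74, 10.55 and 10.59 in sham arrays. The groups were clearly apart, 1.90-fold lower in SAH (9.70 ± 0.18 and 10.63 ± 0.10, SD, n = 3 each, difference -0.93 ± 0.12 SE, limma adjusted p = 0.0326). The call ended without SAH array 4 (adjusted p = 0.0636), SAH array 5 (0.117), sham array 6 (0.180), sham array 7 (0.139) or sham array 8 (0.0997). At an unadjusted p under 0.05 there were 7 genes of this list, 6 lower and 1 higher in SAH. Over all genes the share was 18.6%, with 10.5% lower in SAH. Plcb4, a phospholipase activated by Gq, differed by -0.50 ± 0.11 and Adcy6 by -0.61 ± 0.16, with adjusted p of 0.123 and 0.169. Adcy1, the 1 higher gene, differed by 0.66 ± 0.20 (adjusted p = 0.206).

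**Figure D4:**
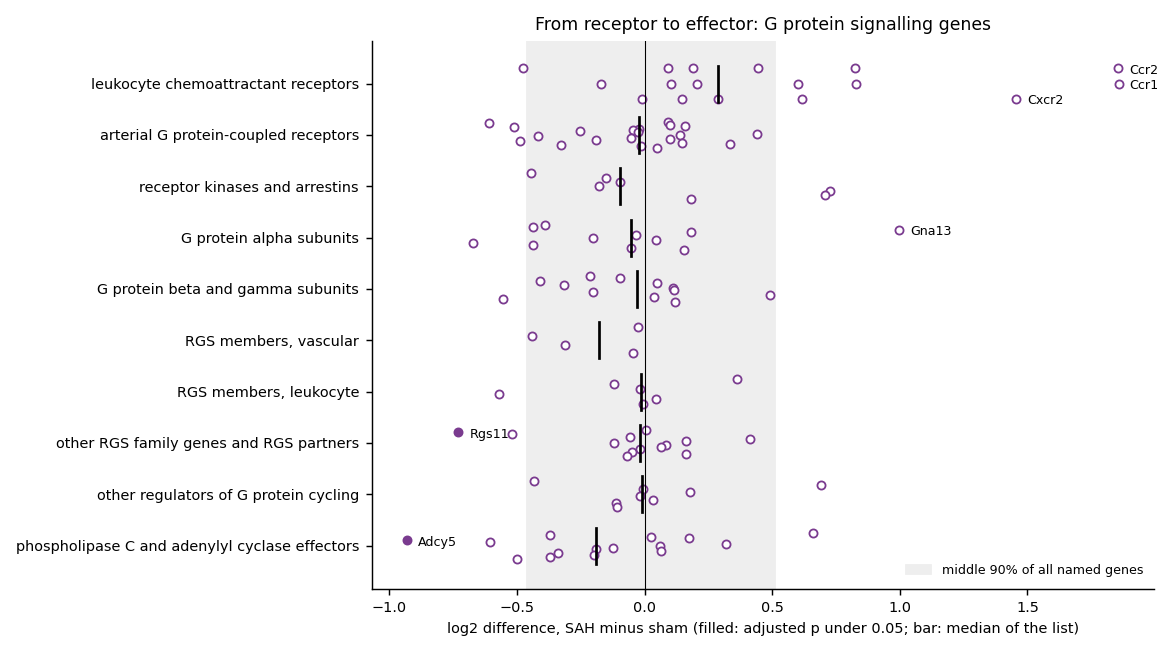
Log2 differences, SAH minus sham (horizontal axis), of each measured gene in 10 lists from receptors to effectors, with filled points for an adjusted p under 0.05, black bars for list medians and a grey band for the middle 90% of all named genes. Rgs11 and Adcy5 are the filled points, and the RGS members lie between -0.57 and 0.36.

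The genes with the nearest profiles were found for the 3 members with the largest differences, as the root mean square distance over 6 arrays between profiles each centred on its own mean. Rgs16 was nearest to Zfp46 (0.101 log2 units), Rab6b (0.102) and Alox5, the 5-lipoxygenase gene (0.110). Alox5 read 7.71, 7.37 and 7.57 in SAH arrays, against 8.23, 7.87 and 8.74 in sham arrays, with array 8 highest as for Rgs16. Rgs3 was nearest to Tgfb1i1 (0.0599), Fchsd2 (0.0633) and Snupn (0.0685), and Rgs1 to Cyp7b1 (0.0813), Igsf10 (0.113) and Nabp1 (0.115). None of these 9 genes passed limma's adjusted threshold, with adjusted p values from 0.132 to 0.665.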

How the data were processed

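RNA of rat cerebral arteries was measured on 6 Affymetrix arrays. The deposited values are log2 expression values, which the authors made with Affymetrix Expression Console 1.1.2 and RMA, per the submitters' processing notes. No source used here gives the settings or the genome build. RMA equalises the arrays' distributions, so a general change in RNA cannot be seen, and it understates differences of dim genes. Of 36685 probe sets, 190 controls were set aside and 36495 tested. GEO's platform annotation, updated through the RefSeq table, named 18511 of these with 1 gene, 575 with several and 17409 with none. A gene was represented by its probe set with the highest mean. The groups were compared in limma (version 3.58.1, R 4.3.3; two-sided, no covariate, Benjamini-Hochberg over all probe sets), and the script was checked on simulated data. The number of arrays limits the precision.

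The members and lists were chosen with earlier results of these data known. Named genes were all members, called genes of each list or up to 3 with the smallest p, and the 3 genes nearest in profile to the 3 members with the largest differences. Adcy1, Adcy6, Cd163, Gna11, Gnaq, Gnb5, Plcb4, Prkg1, Rgs7bp, Rgs8, Rgs12, Rgs13, Rgs17 and Rgs21 were named outside that rule. Endothelial, fibroblast and glial marker lists were also counted, with medians of -0.24, -0.17 and 0.17 and 0 genes past limma's adjusted threshold in each. At an unadjusted p under 0.05 there were 3 of 8, 0 of 6 and 1 of 6, against 18.6% of all genes. Alternatives were array weights, array medians subtracted, a filter that kept probe sets above the median of 3 or more arrays, trended and robust eBayes, a repeat of quantile normalization, the mean over a gene's probe sets, an adjusted p under 0.10, and each array left out.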

Additional observations from a re-analysis of the deposited data

How the results depend on the processing

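Under all alternatives tried, 0 RGS members passed the adjusted p threshold in limma, with 0 to 2 members at an unadjusted p under 0.05. The median of the vascular members lay between -0.31 and -0.15 and that of the leukocyte members between -0.08 and 0.04 when an array was left out, and inside these ranges under the other alternatives. The filter on dim probe sets removed Rgs1 and Rgs14. Several members near 0 changed sign: Rgs2 (0.086), Rgs14 (0.014) and Rgs19 (0.0045) with array weights, and Rgs19 (0.014) with quantile normalization repeated. Leaving out an array gave ranges that crossed 0 for Rgs2 (-0.21 to 0.29), Rgs5 (-0.12 to 0.019), Rgs14 (-0.077 to 0.051), Rgs18 (-0.043 to 0.18) and Rgs19 (-0.10 to 0.092). Rgs1, Rgs3, Rgs4, Rgs10 and Rgs16 kept their direction in all fits that held them. Of these fits, the filter, trended and robust eBayes and the mean over probe sets could not change a member's own difference. Each member had exactly 1 probe set.

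Over all genes 235 passed, against 672 with the filter on dim probe sets, 695 with the mean over a gene's probe sets, where fewer features were tested in both, 373 with array weights, 363 with trend and robust options, 530 at an adjusted p under 0.10, and 29 (without sham array 6) to 670 (without SAH array 1) with an array left out. Of the 182 pathway and marker list genes 3 passed, where 1.29% of all genes did. In the same order of settings 12, 11, 4, 5 and 8 passed. The filter on dim probe sets kept 132 of these list genes and 11323 of all 18166 genes. With an array left out 0 to 10 list genes passed. The count was 0 where SAH array 4 or 5 or sham array 6 or 7 was missing, and 10 without SAH array 1. Alternatives for these lists were chosen after seeing the data. For the other changes the cause was not tested. No paired analysis was possible because the groups share no array numbers.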
